A study of Mus musculus with 6 samples.

Results

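The epithelial keratins are 9 genes, taken by symbol from the platform annotation: the simple keratins Krt7, Krt8, Krt18 and Krt19, the basal keratins Krt5, Krt14, Krt15 and Krt17, and the mucosal keratin Krt4. They were read by 15 probe sets that each carried a single gene symbol, of 34945 such probe sets for 18193 genes on the array. The arrays held RNA of lung cells from 3 samples labelled Bmi1 mutant, whose genotype label is Bmi1 null. They were set against 3 samples labelled Bmi1 wild-type. All 6 came from female mice aged 4 months on a mixed Bl6/129 background, and whether a sample was 1 mouse or a pool is not given in the sources used here. Live cells without CD31 and CD45 had been sorted from digested lung, and their RNA was amplified before it was hybridised to Affymetrix Mouse Genome 430 2.0 arrays.

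Keratins are the intermediate filament proteins of epithelial cells, and a filament is built from pairs of a type I and a type II keratin. Krt8 (type II) and Krt18 (type I) form the pair of simple, single-layered epithelia such as the alveolar and airway lining, where Krt7 (type II) and Krt19 (type I) accompany them. Krt5 (type II) and Krt14 (type I) form the pair of basal cells, the stem cells of the airway epithelium, in which Krt15 and Krt17 are made as well. Krt4 pairs with Krt13 in the upper layers of mucosal epithelia.

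In the RefSeq gene table of GRCm38.p6, Krt8 and Krt18 are direct neighbours, as are Krt15 and Krt19. The type II members lie on the same chromosome as Krt18, and the other type I members lie together on another. RefSeq promoter sequences were found for 5 of the 9 members. Below are the last 120 bases before and the first 20 bases of the annotated start for the neighbouring simple pair, for Krt7 and for the basal keratin Krt5, shown so that the starts of 3 simple keratins and 1 basal keratin can be read side by side. Capitals mark TATAAA, the TATA box, or the related ATAAAA on either strand.
Krt8, chr15:102004323-102004462, minus strand: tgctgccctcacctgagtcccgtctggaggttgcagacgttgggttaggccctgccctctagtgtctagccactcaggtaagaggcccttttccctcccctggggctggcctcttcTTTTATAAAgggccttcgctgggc
Krt18, chr15:102028096-102028235, plus strand: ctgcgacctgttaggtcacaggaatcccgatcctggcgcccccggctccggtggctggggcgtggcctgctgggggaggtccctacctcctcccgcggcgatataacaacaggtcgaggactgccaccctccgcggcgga
Krt7, chr15:101412283-101412422, plus strand: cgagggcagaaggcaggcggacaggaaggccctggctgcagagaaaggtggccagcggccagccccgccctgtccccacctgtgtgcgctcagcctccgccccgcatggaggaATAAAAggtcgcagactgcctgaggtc
Krt5, chr15:101712886-101713025, minus strand: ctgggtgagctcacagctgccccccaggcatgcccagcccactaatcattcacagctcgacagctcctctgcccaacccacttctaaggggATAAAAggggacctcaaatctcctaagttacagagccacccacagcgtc

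Within the full window of 250 bases before to 50 bases after the start, Krt8 held TATAAA at position -1 on its own strand and overlapping copies of TATAAA at -3 and ATAAAA at -4 on the other strand. Krt7 held ATAAAA at -7 and Krt5 held it at -29, and Krt18 and the basal keratin Krt14, whose sequence is not printed, held neither. TATAAA occurs in 13.6% and ATAAAA in 18.5% of 32851 RefSeq promoter windows of this length. Krt7 also held 4 copies of GGGCGG, the GC box, which occurs in 35.7% of the windows. CCAAT and TGANTCA, the AP-1 motif, were searched on both strands as well, occur in 37.4% and 7.81% of windows and were absent from these 5 windows. These matches describe letters only, and the motifs were chosen with the sequences in view.

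Bmi1 itself was not lower in the arrays labelled mutant. Its brighter probe set read 1276, 1498 and 1565 in the mutant-labelled arrays, against 996, 979.8 and 1164 in the wild-type arrays. The labels do not say which part of Bmi1 is missing, and whether these probe sets lie in it is not known here, so the values do not check the labels. Every direction below rests on the labels. Epithelial cells were present in both groups: Epcam averaged 4200.3 ± 523 in mutant-labelled arrays and 5203 ± 1407 in wild type, and Cdh1 averaged 4282 ± 461 in mutant-labelled arrays and 4039 ± 545 in wild type (SD, n = 3 each). Transcripts of the markers used to sort cells out were also present, with Pecam1, which encodes CD31, at 2939 ± 247 in mutant-labelled arrays against 2247 ± 506 in wild type. Ptprc, which encodes CD45, read 5767 ± 852 in mutant-labelled arrays against 7716 ± 966 in wild type. Epcam, Cdh1 and Ptprc were chosen after their values were seen. The median signal per array lay between 97.4 and 114, and 47.7% to 50.3% of probe sets on an array read under 100. The number of arrays limits the precision.

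No epithelial keratin differed between the genotypes past the threshold. With limma on log2(signal + 16), 0 of 9 were called at a Benjamini-Hochberg adjusted p under 0.05, where 0.923% of all 18193 genes were called. At an unadjusted p under 0.05 there were 2 of 9, Krt19 (lower) and Krt14 (higher), against 14.5% of all genes. Of the 9 log2 differences 6 lay above and 3 below 0, with a median of 0.16 beside 0.01 over all genes tested. The samples of the genotypes did not overlap for 2 members, Krt8 above and Krt19 below. Over all genes, 10.4% lay fully above and 10.0% fully below. Among the 15 probe sets tested singly, 0 were called, against 0.404% of all probe sets, and the smallest adjusted p was 0.357.

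**Figure D1:**
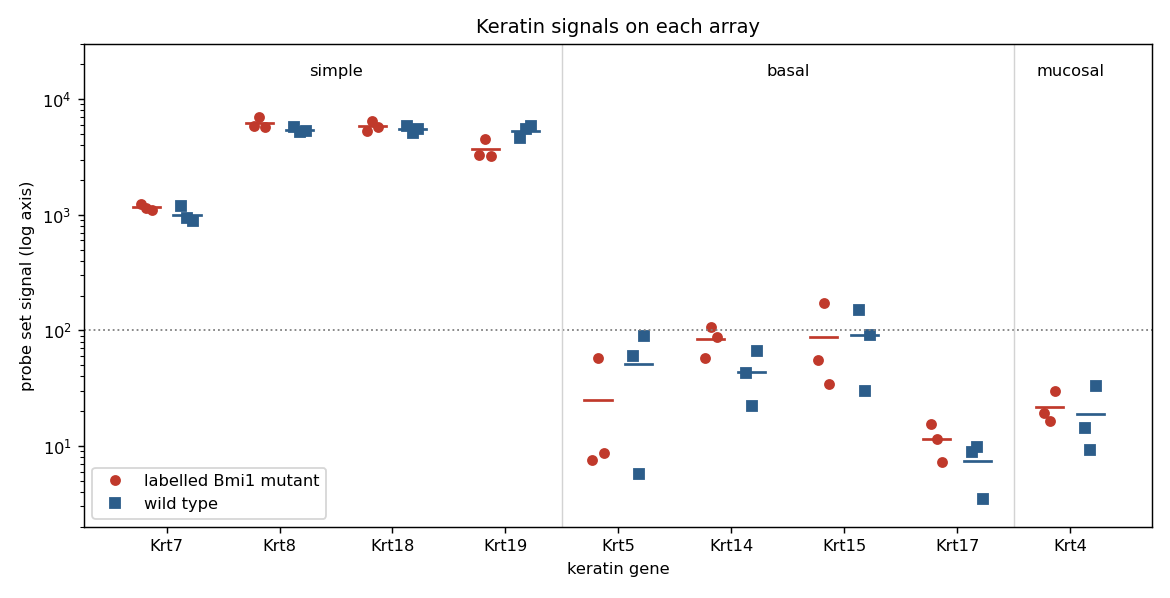
Signal of each keratin on each array, on a log axis, with 3 arrays labelled Bmi1 mutant (circles, left) and 3 wild-type arrays (squares, right) per gene, short bars at the group means and a dotted line at 100. The lowest simple keratin value is 881 (Krt7, wild type), and the basal keratins and Krt4 have group means below 100 in both genotypes.

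Among the simple keratins, the groups did not overlap for Krt8 (mutant-labelled above) and Krt19 (mutant-labelled below), and overlapped for Krt7 and Krt18. The log2 difference of Krt7, 0.22, was no smaller than that of Krt8, 0.19, so the lack of overlap does not single out Krt8. Krt8, the type II partner of Krt18, read 5852, 7002 and 5768 in the mutant-labelled arrays, against 5706, 5224 and 5307 in wild type. All 3 mutant-labelled values were above the 3 wild-type values, by a margin of less than the spread within either genotype. The means were 6208 ± 689.7 and 5413 ± 258 (SD, n = 3 each, mutant-labelled and wild type), a log2 difference of 0.19 (95% interval -0.19 to 0.57, limma adjusted p = 0.653). A second Krt8 probe set read 5558, 6156 and 5699 in mutant-labelled arrays, against 5534, 5201 and 4862 in wild type, and did not overlap. The third read 4428, 5914 and 4413 against 4431, 3997 and 4093 in wild type, and did overlap. Their log2 differences of 0.16 and 0.22 had the same sign as that of the first. Both of these have the _x_at suffix, which Affymetrix gives to probe sets with probes that match other transcripts.

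Krt18 read 5306, 6479 and 5722 in mutant-labelled arrays, against 5874, 5142 and 5534 in wild type. The groups overlapped, and the log2 difference was 0.08 (95% interval -0.31 to 0.46, limma adjusted p = 0.879). Krt7 read 1230.2, 1153 and 1102 in mutant-labelled arrays, against 1186, 937 and 881 in wild type. Wild-type replicate 1 lay among the mutant-labelled values, and the log2 difference was 0.22 (95% interval -0.20 to 0.64, limma adjusted p = 0.636). With the mean of the fibroblast markers as a covariate the Krt7 difference was -0.06. That mean itself lay apart between the genotypes, at log2 11.98 to 12.04 in mutant-labelled arrays and 10.67 to 11.73 in wild type. A fit with it therefore cannot separate the covariate from the genotype. The intervals of Krt8, Krt18 and Krt7 include 0 and reach 0.64 at most, so a modest difference in either direction could not be resolved with 3 arrays against 3.

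Krt19, a type I keratin that lacks most of the tail domain found in the others, was the member with the lowest unadjusted p. It read 3278, 4532 and 3254 in mutant-labelled arrays, against 4567, 5485 and 5828 in wild type. Every mutant-labelled value was below every wild-type value, although mutant replicate 2 and wild-type replicate 1 nearly met. The mean was 3688 ± 731 in mutant-labelled arrays and 5293 ± 652 in wild type (SD, n = 3 each), which is 69.7% of the wild-type mean. The log2 difference was -0.53 ± 0.20 (moderated SE, 95% interval -1.01 to -0.05), with an unadjusted p of 0.0351 and a limma adjusted p of 0.303. It stayed below 0 in 17 of 17 alternative settings, between -0.69 and -0.28, and passed the threshold in 0 of them (adjusted p 0.123 to 0.945). The smallest size, -0.28, came with the fibroblast markers as a covariate. Their mean lay apart between the genotypes, so no reading is drawn from that change in size.

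**Figure D2:**
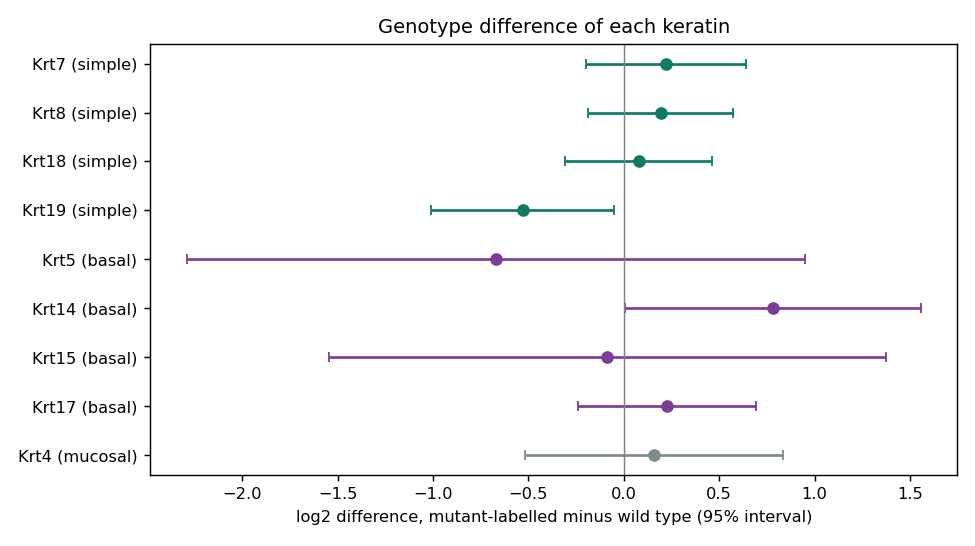
Log2 difference of each keratin between arrays labelled Bmi1 mutant and wild-type arrays (points, n = 3 each), with bars for the 95% interval from limma, not adjusted for the number of genes. Krt19 at -0.53 and Krt14 at 0.78 have intervals that just leave out 0, and the intervals of Krt5 and Krt15 are wide.

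Markers of cells outside the epithelium were read on the same arrays. The 10 fibroblast markers summed to signals of 54258 to 59083 in mutant-labelled arrays and 24779.7 to 43105 in wild type, with all 10 differences above 0, a median of 0.67 and 1 called higher. The 7 smooth muscle and pericyte markers summed to 9859.8 to 11814 in mutant-labelled arrays and 2231 to 8154 in wild type, with a median log2 difference of 1.51 and 0 called. The 11 measured hematopoietic markers summed to 37004 to 50214 in mutant-labelled arrays and 34673 to 44331 in wild type. Of their differences 5 lay above 0, and the median was -0.42. Ms4a1, Cd79a and Ncr1 were the 3 called lower, and 0 were called higher, where 0.923% of all genes were called. S100a8 and Itgam, named with their values known, lay fully above wild type, at 1.46 and 1.06, and were not called. Mesothelial cells, which line the lung and also make simple keratins, had 11 markers that summed to 4226 to 6529 in mutant-labelled arrays and 4547 to 5558 in wild type, with a median of 0.04 and 0 called. No marker in these lists was at 0 on any array, but a signal above 0 does not show that a marker was present. Cnn1, a smooth muscle marker, read 8.66 in wild-type replicate 3, and Ncr1, a hematopoietic marker, read 11.2 in mutant replicate 1. The part of cells outside the epithelium in the Krt19 difference was not tested. In such mixed cells, fewer keratin-making cells and less keratin RNA per cell cannot be told apart.

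The basal keratins had mean signals under 100 in both genotypes, and for none did the genotypes lie apart. Krt5 read 7.57, 58.2 and 8.63 in mutant-labelled arrays, against 60.3, 5.73 and 88.8 in wild type. Both genotypes held arrays near 60 and arrays under 10, and the log2 difference of -0.67 had a 95% interval from -2.29 to 0.95 (limma adjusted p = 0.721). Krt15 read 55.7, 173 and 34.5 in mutant-labelled arrays, against 149.7, 29.9 and 91.6 in wild type, so that each genotype spanned nearly the same range. Its log2 difference was -0.09 (95% interval -1.54 to 1.37, limma adjusted p = 0.967), and its sign turned in 6 of 16 settings. Krt17, also induced in injured epithelium, read 15.5, 11.4 and 7.31 in mutant-labelled arrays, against 8.92, 9.82 and 3.50 in wild type. Its second probe set had the opposite sign, with a log2 difference of -0.69 beside 0.23 for the first, and neither was called. The Krt17 values of the first probe set lie below the offset of 16, so their fold is understated.

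Krt14, the type I partner of Krt5, was the basal keratin with the clearest lean. It read 57.2, 107 and 87.9 in mutant-labelled arrays, against 42.5, 22.3 and 66.3 in wild type. The groups overlapped, because wild-type replicate 3 exceeded mutant replicate 1. The log2 difference was 0.78 ± 0.33 (moderated SE, 95% interval 0.005 to 1.56, limma adjusted p = 0.341) and lay between 0.46 and 1.26 in 16 of 16 settings. A second Krt14 probe set read 35.5, 45.2 and 33.8 in mutant-labelled arrays, against 17.8, 4.24 and 33.7 in wild type, which did not overlap but nearly touched. The third, under 10 on every array, had a difference of 0.22. A further probe set annotated to both Krt17 and Krt14 entered no gene-level test. It read 9.02, 24.6 and 25.4 in mutant-labelled arrays, against 2.58, 2.75 and 8.85 in wild type, a log2 difference of 0.76 (limma adjusted p over all probe sets = 0.287). The brightest Krt14 probe set has the _x_at suffix, and how much of its signal came from related keratins was not tested.

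Krt4 read 19.4, 16.4 and 29.8 in mutant-labelled arrays, against 14.2, 9.27 and 33.3 in wild type. The groups overlapped, and the log2 difference was 0.16 (95% interval -0.52 to 0.84, limma adjusted p = 0.858). Its second probe set had a difference of -0.23, so the sign of Krt4 depends on the probe set. Krt13, its type I partner, read 19.9, 2.52 and 9.01 in mutant-labelled arrays, against 11.1, 2.03 and 2.44 in wild type, and is named here with its values known.

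Set against each other, the simple and basal means gave no difference by genotype that 3 arrays against 3 could resolve. Both means join members of opposite sign, such as Krt14 at 0.78 and Krt5 at -0.67, or Krt8 at 0.19 and Krt19 at -0.53. The mean of the simple keratins had log2 values of 11.72, 11.95 and 11.70 in mutant-labelled arrays, against 11.85, 11.75 and 11.78 in wild type. The mean of the basal keratins had values of 5.47, 6.37 and 5.38 in mutant-labelled arrays, against 6.03, 4.98 and 6.03 in wild type. The simple mean minus the basal mean was 6.04 ± 0.41 in mutant-labelled arrays and 6.12 ± 0.57 in wild type (SD, n = 3 each). The difference between the genotypes was -0.07 ± 0.41 (SE), smaller than the spread within either. Its sign turned in 5 of 16 settings, over a range of -0.26 to 0.26. The level of this contrast depends on the probes, and the difference between genotypes is the quantity that can be read. The spread between arrays was larger for the basal than for the simple keratins. The basal mean had an SD of 0.55 in mutant-labelled arrays and 0.61 in wild type. The simple mean had an SD of 0.14 in mutant-labelled arrays and 0.05 in wild type. Basal signals had group means under 100, and how much of their spread was measurement noise was not tested.

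The contrast between Krt8 and Krt19, the members whose groups did not overlap, restates their opposite signs on each array. Within an array, Krt8 minus Krt19 was 0.83, 0.63 and 0.82 in mutant-labelled arrays, against 0.32, -0.07 and -0.13 in wild type. All 3 mutant-labelled arrays were above all 3 wild-type arrays, and the genotypes differed by 0.72 ± 0.16 (SE, log2). Krt18 minus Krt19 differed by 0.61 ± 0.17 in the same direction, with no overlap. Krt8 minus Krt18, the partners of the simple filament, was 0.14, 0.11 and 0.01 in mutant-labelled arrays, against -0.04, 0.02 and -0.06 in wild type. Those groups overlapped, and the genotypes differed by 0.11 ± 0.05. The Krt8 to Krt19 contrast lay between 0.41 and 0.86 in 17 of 17 settings, the lowest with the fibroblast covariate, which lay apart by genotype. These contrasts were chosen with the values in view and carry no p.

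**Figure D3:**
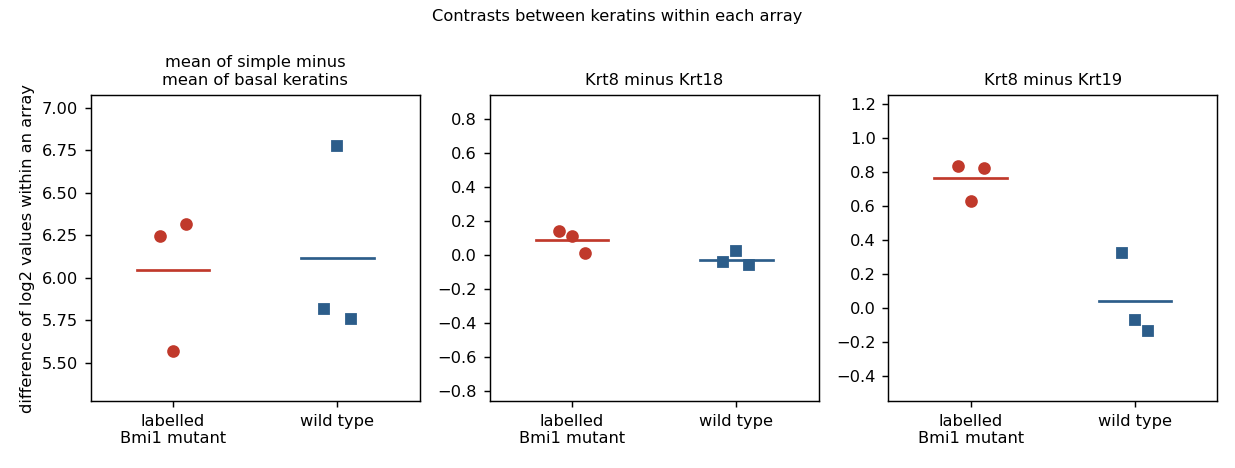
Differences of log2 values between keratins within each array, for 3 arrays labelled Bmi1 mutant (circles) and 3 wild-type arrays (squares), with bars at the means; all panels span the same height. The simple-minus-basal contrast overlaps (means 6.04 and 6.12), and Krt8 minus Krt19 does not (means 0.76 and 0.04).

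Arrays of the same genotype differed from each other in several keratins at once. Mutant replicate 2 had the highest value of the mutant-labelled arrays for 6 of 9 members, Krt8, Krt18, Krt19, Krt5, Krt14 and Krt15. Wild-type replicate 2 had the lowest wild-type value for 6 of 9, Krt8, Krt18, Krt5, Krt14, Krt15 and Krt4. After centring each genotype on its mean, log2 values over the 6 arrays correlated at 0.89 between Krt8 and Krt18, at 0.89 between Krt5 and Krt14 and at 0.90 between Krt5 and Krt15. The correlation across classes was as high for some pairs, at 0.89 between Krt8 and Krt15 and 0.83 between Krt18 and Krt5. Other members followed less closely or ran the other way. Krt19 correlated at 0.56 with Krt8 and 0.43 with Krt18, and Krt7 at 0.34 with Krt8 and 0.24 with Krt18. Krt17 correlated at -0.77 with Krt14 and -0.87 with Krt4, and Krt4 at -0.35 with Krt8. The Krt17 values used lie below the offset of 16, and those of Krt4 lie between 9.27 and 33.3. For both genes the second probe set had a genotype difference of the opposite sign. These negative correlations therefore rest on signals near the floor, and no reading is drawn from them. These 6 points share the scaling of their array and describe the arrays only. Trp63, the transcription factor that defines basal cells, followed the same order at its ends. It read 35.8, 135 and 107 in mutant-labelled arrays, against 65.8, 27.2 and 72.2 in wild type, and is named here with its values known. Among the other airway basal cell markers, Aqp3 had both of these ends. Ngfr, Itga6, Dapl1, Snai2, Dlk2 and Lamb3 did not have both. Snai2 read 1241, 1017 and 1322 in mutant-labelled arrays, lowest where Trp63 was highest.

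Of 11487 genes with a mean signal of 100 or more, the 5 most like Krt8 over the 6 arrays were Hdac5 (Pearson r = 0.992), Trak1 (0.990), Plau (0.987), Arhgap23 (0.984) and Fam219aos (0.983). The 5 most like Krt5 were Vegfc (0.997), Rasgrf2 (0.994), Cacna2d2 (0.992), Xpo5 (0.984) and Usp28 (0.982). Unlike the correlations between members above, these were not centred by genotype. By rank the likeness was lower for Hdac5 and Usp28, each with a Spearman rho of 0.771, and was 0.886 or more for the others. Above the lower level of 0.9, 227 genes correlated with Krt8 and 54 with Krt5. With 6 arrays, no reading is drawn from these names.

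Among the other keratin genes of the array, 1 passed the test. Of 39 other keratins, 31 stayed under a signal of 100 on all 6 arrays, and the median log2 difference was -0.02. Of these 39, 1 was called lower and 0 higher, where 0.923% of all genes were called. The called gene was Krt79, at 171, 477 and 272 in mutant-labelled arrays, against 2053, 1842 and 3058 in wild type. It lies directly beside Krt4 in the RefSeq table, and Krt4 was not called. Which cells made the Krt79 signal was not tested, and transcripts of cells outside the epithelium, such as Ptprc, were on the same arrays. The log2 difference of Krt79 was -2.93 ± 0.38 (moderated SE, limma adjusted p = 0.0280). In alternatives chosen after seeing the data, Krt79 stayed below 0 in 17 of 17 settings, between -3.30 and -2.43, and was called in 8. The call was lost with the replicate block (limma adjusted p = 0.0908) and with the fibroblast covariate (0.557), which lay apart by genotype. The epithelial covariate (0.0699) and an offset of 1 (0.0829) also removed it. It was also lost when mutant replicate 1 (0.0750) or 3 (0.0826), or wild-type replicate 1 (0.0670), 2 (0.106) or 3 (0.113), was left out. Krt80, the neighbour of Krt7, read 993, 986 and 956 in mutant-labelled arrays, against 866, 774 and 757 in wild type. Its groups did not overlap, at a log2 difference of 0.29 (limma adjusted p = 0.442). Krt31 and Krt20 came between Krt79 and Krt80 in the order of p, with highest array values of 31.8 and 15.4, and were not called.

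**Figure D4:**
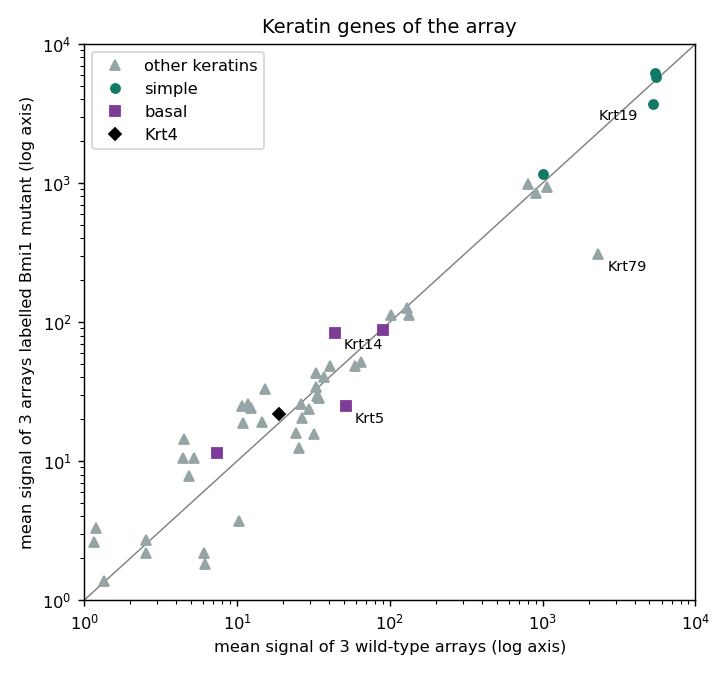
Mean signal of the 9 members and 39 other keratin genes in 3 arrays labelled Bmi1 mutant against 3 wild-type arrays, on log axes, with a line of equal signal. The triangle of Krt79 (307 in mutant-labelled arrays and 2318 in wild type) lies far below the line. Several keratins with low signals also scatter off the line on both sides, and Krt19 is the only simple keratin below it.

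Genes that anchor keratin filaments were tested singly and counted by list. Of 13 measured desmosome genes, which tie keratins to cell junctions, 0 were called and the median log2 difference was 0.13. Dsp, the plakin that binds keratins there, read 3627, 3793 and 3739.7 in mutant-labelled arrays, against 2690.1, 3235 and 2845 in wild type (log2 difference 0.35, limma adjusted p = 0.367). Perp, a desmosome membrane protein, read 2158, 2518 and 2197 in mutant-labelled arrays, against 3089.9, 2969 and 4368 in wild type (log2 difference -0.58, limma adjusted p = 0.263). Neither gene's groups overlapped. Of 6 plakin linkers 0 were called, with a median of 0.20, and Plec, which links keratins to hemidesmosomes, had a difference of 0.79 (limma adjusted p = 0.123) with no overlap. Of 6 measured hemidesmosome genes, which hold basal cells to their matrix, 0 were called and the median was 0.59. Lamb3, a laminin chain, read 1596, 1515 and 1066 in mutant-labelled arrays, against 405, 387 and 862 in wild type (log2 difference 1.39, limma adjusted p = 0.132). Lama3, the laminin chain it is assembled with, read 73.7, 107 and 102 in mutant-labelled arrays, against 109, 113 and 161 in wild type, with no overlap in the other direction (log2 difference -0.37, limma adjusted p = 0.497). Itga6, an integrin chain, had a difference of -0.47 with overlap (limma adjusted p = 0.410). Lama3 and Itga6 were chosen with their values known.

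Epithelial lists around the keratins were likewise without calls. Of 17 measured epithelial identity genes 0 were called, with a median of 0.09 beside 0.01 over all genes. Of 16 epithelial transcription factors 0 were called, 12 lay above 0 and the median was 0.24. Tfap2c, an activator of epidermal genes, read 289.9, 64.7 and 147 in mutant-labelled arrays, against 26.1, 13.3 and 8.72 in wild type (log2 difference 2.35, limma adjusted p = 0.0858). Of 9 measured alveolar type 2 markers 0 were called, 9 lay above 0 and the median was 0.19. Of 9 alveolar type 1 markers 0 were called, 9 lay above 0 and the median was 0.26. Pdpn and Spock2 had the lowest p of the type 1 list, with log2 differences of 1.51 and 1.42 (limma adjusted p = 0.0530 and 0.0608). From which cells the Pdpn and Spock2 signals came was not tested. Of 8 airway basal cell markers 0 were called, and their median was 0.22. Of 10 squamous cell markers 0 were called, 6 lay above 0 and the median was 0.12. Ly6d, the gene of that list with the lowest p, lay the other way (log2 difference -1.16, limma adjusted p = 0.0764). It read 84.5, 145 and 101 in mutant-labelled arrays, against 231, 303 and 249 in wild type. Which cells made the Ly6d signal was not tested. The other intermediate filament genes, 15 in number, had 0 calls and a median of 0.30, with Vim, of mesenchymal cells, at 0.19. Vim was chosen after its values were seen.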

How the data were processed

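The table held 45101 probe sets on 6 arrays, and 64 controls were dropped. The authors deposited 1 linear intensity for each probe set and array. The submitters' processing notes name Affymetrix Expression Console 1.1. How probes were summarized into probe sets is not given in the sources used here. Trimmed means of 500.0023 to 500.0025 show that arrays had been scaled alike, so a shift of all genes together cannot be seen.

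Values were taken as log2(signal + 16). Each gene was represented by its probe set with the highest mean, and 18193 genes were compared, mutant-labelled minus wild type, by moderated linear models (limma 3.58.1, R 4.3.3, prior degrees of freedom 2.93), with Benjamini-Hochberg adjustment over all genes. A second fit used all 45037 non-control probe sets. The fit was tested on simulated data. Samples are called biological replicates but may be pools or single mice, so p-values reflect only how these samples vary. The members, the 17 lists (171 of 178 entries measured) and the naming rule were chosen with earlier results of these data known. The rule took all members, Bmi1, the other keratins called or with the 4 smallest p, up to 4 genes per list and 5 genes most like Krt8 and Krt5. Alternatives covered normalization, offsets, a filter, joining of probe sets, prior, weights, covariates, replicate block and left-out arrays. Same-numbered arrays deviated together with correlations of 0.07, 0.05 and 0.03 and were not treated as pairs. Figures were drawn with matplotlib 3.10.9.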

Additional observations from a re-analysis of the deposited data

How the results depend on the processing

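None of the 9 members was called in any of 17 alternatives. The count over the whole table, 168, moved more: it was 38 with an offset of 1, 264 with an offset of 64, 308 among genes with a mean signal of 100 or more, 438 with a trended and robust prior, 44 with the epithelial covariate and 0 with the fibroblast covariate. The fibroblast mean lay apart between the genotypes, so the fit with it cannot separate the covariate from the genotype. With the replicate number as a block the count was 0. Leaving out 1 array lowered it to between 2 and 76. Among the mutant-labelled arrays it was 23 with the first left out, 61 with the second and 76 with the third. Among the wild-type arrays it was 65 with the first left out, 2 with the second and 8 with the third. The cause was not tested.

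Krt8, Krt18, Krt19, Krt5 and Krt14 kept their sign in all settings run. Krt15, at -0.09, was 0.0021 with quantile normalization and 0.0085 with median centring, and lay between -0.64 and 0.33 without single arrays, with a positive sign at 0.063 when mutant replicate 1 was left out, 0.31 when mutant replicate 3 was, 0.33 for wild-type replicate 1 and 0.015 for wild-type replicate 3. Krt17 was -0.23 with the mean of its probe sets, -0.060 with the fibroblast covariate and -0.69 by its second probe set. Krt4 was -0.036 with the mean of its probe sets, -0.10 with the epithelial covariate and -0.23 by its second probe set, and without single arrays it lay between -0.043 (without wild-type replicate 2) and 0.44. Krt7 was -0.065 with the fibroblast covariate. The filter on dim genes left no basal keratin and no Krt4, so no simple minus basal difference was made. Signals of basal keratins near or below the offset limit what the arrays resolve.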

Other observations

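Genes of airway secretory cells lay in both directions, and none passed the test. Scgb3a1, a secretoglobin, averaged 8429 ± 558 in mutant-labelled arrays and 4460.2 ± 1482 in wild type, and Cyp2f2, a cytochrome of club cells, averaged 3639 ± 421 in mutant-labelled arrays and 5584 ± 132 in wild type (SD, n = 3 each). Neither gene's groups overlapped. The log2 differences were 0.97 and -0.62, with limma adjusted p-values of 0.154 and 0.146. The mucin Muc5b had a difference of 1.38 (limma adjusted p = 0.238). Of 7 club cell markers 0 were called, and the median was 0.12. Foxj1, the master regulator of ciliated cells, had a difference of 0.68 (limma adjusted p = 0.204), and 8 of 8 ciliated cell markers lay above 0 with 0 called.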
